A study of Mus musculus with 4 samples.

Results

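The miRNAs of the imprinted Dlk1-Dio3 locus on mouse chromosome 12 were followed in C2C12 myotubes. The list held 58 mature miRNAs, chosen by their names and their position in the locus and not by a measured value. Of these, 16 had reads in at least 1 sample, among 869 miRNAs detected in all, and the other 42 had none.

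C2C12 is an established line of mouse skeletal myoblasts, which form multinucleate myotubes by fusion when serum is lowered, and the labels give its strain background as 129/Rej. Small RNA was sequenced on day 6 of differentiation from 2 samples in differentiation medium with horse serum (negative control, NC-1 and NC-2). Another 2 samples were in the same medium with 20 mM guanidinoacetic acid (GAA-1 and GAA-2). Guanidinoacetic acid (GAA) is an amino acid derivative and a direct precursor of creatine. The comparison asks whether GAA changes the miRNA profile of myotubes. The labels do not say that the samples of a group came from separate cultures, so the p-values measure only the spread between these samples.

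The Dlk1-Dio3 locus is imprinted, which means that the parental origin of a chromosome decides which of its genes are read. Dlk1, Rtl1 and Dio3 are expressed from the paternal chromosome, whereas the long non-coding RNAs Meg3, Rian and Mirg and one of the largest miRNA clusters of mammals are expressed from the maternal one. The miRNAs are abundant in the embryo, the placenta and the brain, and several of them have been studied in muscle stem cells and in muscle regeneration. A miRNA pairs with its target mRNAs mainly through its seed, bases 2 to 8 counted from the 5′ end, and either strand of the precursor hairpin, named 5p or 3p, can become the mature miRNA.

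The mature sequences of the 16 miRNAs with reads are shown because they are the only part of the list that could be measured. They were taken from RefSeq (GRCm38.p6), run 5′ to 3′, and have the seed in capitals.
miR-127-3p: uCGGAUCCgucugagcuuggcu
miR-127-5p: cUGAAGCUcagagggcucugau
miR-434-3p: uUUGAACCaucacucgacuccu
miR-434-5p: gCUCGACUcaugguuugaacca
miR-136-5p: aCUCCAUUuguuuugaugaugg
miR-136-3p: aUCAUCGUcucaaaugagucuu
miR-341-3p: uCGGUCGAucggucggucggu
miR-379-3p: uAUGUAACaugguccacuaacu
miR-411-5p: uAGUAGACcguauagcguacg
miR-380-3p: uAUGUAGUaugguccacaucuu
miR-758-3p: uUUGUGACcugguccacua
miR-300-3p: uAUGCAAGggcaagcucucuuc
miR-381-3p: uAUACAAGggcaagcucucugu
miR-541-5p: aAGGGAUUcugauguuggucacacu
miR-369-3p: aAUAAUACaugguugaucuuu
miR-410-3p: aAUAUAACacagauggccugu

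RefSeq held 55 of the 58 miRNAs, and among these the seed AUGUAAC was the only one present more than once. It is carried by miR-379-3p, which had 1 read, and by miR-411-3p, which had none and is shown for the shared seed.
miR-411-3p: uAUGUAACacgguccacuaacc

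These 2 miRNAs were 2 single-base edits apart over their whole length, and miR-300-3p and miR-381-3p were 3 edits apart, with different seeds. Reads of such near-copies could be exchanged by a sequencing error, so their separate values are uncertain. The nearest detected miRNA outside the locus was 7 to 9 edits away from each miRNA with reads. The miRNAs with and without reads were alike in length, with medians of 22 (19 to 25, n = 16) and 22 (20 to 24, n = 39) bases. Their GC content had medians of 45.5% and 47.8%, and U was the most frequent base at the 5′ end in both sets, in 9 of 16 and 17 of 39.

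The 4 samples had 4732359 to 5657704 mappable reads and 1653803 to 3134241 miRNA reads, and miRNAs took 33.6% to 43.6% of the mappable reads of NC and 50.4% to 56.3% of those of GAA. Levels are therefore given in RPM, reads per 1000000 mappable reads, and also per 1000000 miRNA reads, called here the miRNA share. One read was worth 0.177 to 0.211 RPM, and 3 reads, taken as the lowest reliable number in a library, were worth 0.530 to 0.634 RPM. All intervals are exact 95% intervals and cover counting error only, since PCR reads without molecular identifiers are not independent molecules. All 7 muscle miRNAs of a marker list were present in each sample, summing to 10480 to 13715 RPM, whereas 12 miRNAs of other cell types summed to 39.6 to 71.1 RPM, most of it from the neuron pair miR-124-3p and miR-9-5p, at 28.0 to 41.4 RPM in NC and 43.1 to 59.8 RPM in GAA. Their part in the results was not tested.

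The mature miRNAs of the locus had few reads in these myotubes, and transcription of the locus itself was not measured. Its 16 detected miRNAs had 56 reads in the 4 samples together, of 9704333 miRNA reads, or 5.77 per 1000000. No member reached a mean of 1 RPM, a level that 410 of the 869 miRNAs reached. The median number of reads was 2.5 for the 16 members and 17 for all detected miRNAs, and no member lay above the latter. In RefSeq, 29.1% of the 55 members and 44.6% of 1568 mature miRNAs outside the locus had reads. The members leave out 50 other mature names of the locus, mostly opposite arms, of which 1 had reads, so these sets are unlike. In bulk RNA, few cells with these miRNAs, little of them in each cell and stray reads from another source cannot be told apart.

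Detection was also uneven between samples. Only miR-434-3p and miR-411-5p had reads in each of the 4 samples, 12.5% of the detected members, against 57.2% of all detected miRNAs. A miRNA with fewer than 4 reads cannot be found in all 4 samples, and the median was 2.5 reads for the members. The percentages thus compare miRNAs of unlike read numbers. A further 4 members were found in 3 samples, 3 in 2 samples and 7 in 1 sample, and these last 7 had 1 read each. More than 3 reads in a sample were reached by 3 members, miR-434-3p, miR-434-5p and miR-300-3p. The 42 members with no read include well-studied miRNAs of the locus, such as miR-134-5p, which limits dendritic spine size in neurons through Limk1, miR-431-5p, which targets Pax7 in muscle stem cells, and the miR-376 family, whose precursors undergo A-to-I editing. For each of them the detection limit, taken as 3 reads over the 4 samples together, was 0.309 reads per 1000000 miRNA reads.

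**Figure D1:**
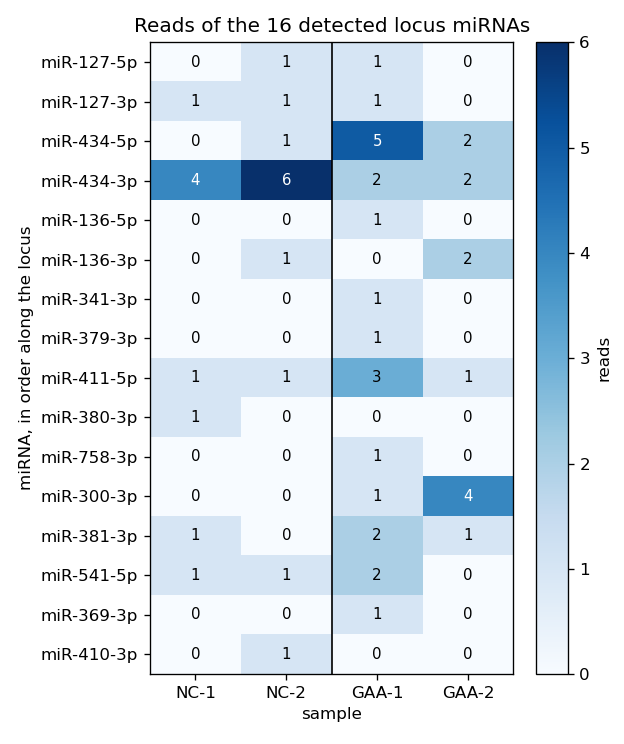
Reads of the 16 detected locus miRNAs (rows) in each of the 4 samples (columns), with the number of reads in each cell. miR-434-3p had 4 and 6 reads in NC and 2 in each GAA sample, and most other cells hold 0 or 1.

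The reads were concentrated at 1 precursor, miR-434, among the Rtl1 antisense miRNAs. Rtl1 is a gene derived from a retrotransposon that is needed for placental and muscle development, and the maternal miRNAs transcribed opposite to it are perfectly complementary to its mRNA. Within Rtl1 (GRCm38 chr12:109589193-109600330, minus strand) lie the precursors of miR-127, miR-434 and miR-136, on the plus strand at chr12:109592854-109595387. All 6 listed arms of these 3 precursors had reads, 31 of the 56 reads of the locus (55.4%). Of these 31 reads, miR-434 gave 22, miR-127 gave 5 and miR-136 gave 4. The last 2 were no higher than miR-411 with 6 and miR-300 with 5, outside Rtl1. Without miR-434 the locus had 34 reads, and 24 of them came from the miR-379 to miR-410 group. The other 9 listed miRNAs on the Rtl1-antisense side of the locus had none, and 2 of them, miR-431-5p and miR-433-3p, also lie within Rtl1. The 7 outside Rtl1 were miR-770-3p, which lies in Meg3 (chr12:109541001-109571726), miR-673-5p, miR-493-3p, miR-337-3p, miR-337-5p, miR-540-3p and miR-665-3p.

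miR-434-3p (chr12:109594565-109594586) had the most reads of the locus and ranked 443 among the 869 miRNAs by mean RPM. NC-1 had 4 reads of it and NC-2 had 6, or 0.812 and 1.27 RPM, whereas GAA-1 and GAA-2 had 2 each, or 0.359 and 0.354 RPM. Each GAA value was thus lower than each NC value. The mean was 1.04 ± 0.32 RPM in NC and 0.356 ± 0.004 RPM in GAA (SD, n = 2 each), and the pooled reads gave a ratio of GAA to NC of 0.344 (0.0788 to 1.19) per mappable read and 0.249 (0.0569 to 0.862) per miRNA read. On the log2(RPM + 1) scale the difference was -0.58 (SE 0.19), and limma gave an adjusted p of 0.275, which did not pass the test.

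Its partner miR-434-5p (chr12:109594528-109594549) had the opposite order. NC-1 had no read of it and NC-2 had 1, whereas GAA-1 had 5 and GAA-2 had 2, so that each GAA value was higher than each NC value. The ratio of pooled reads, which rests on 1 read in NC, was 6.02 (0.774 to 271) per mappable read and 4.35 (0.559 to 196) per miRNA read. limma gave a difference of 0.54 (SE 0.23) on the log2(RPM + 1) scale with an adjusted p of 0.316.

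Both miR-434 arms together had 11 reads in NC and 11 in GAA, a ratio of GAA to NC of 0.860 (0.338 to 2.19) per mappable read and 0.621 (0.244 to 1.58) per miRNA read. The 3p arm gave 10 of 11 reads in NC (90.9%, 58.7% to 99.8%) and 4 of 11 in GAA (36.4%, 10.9% to 69.2%), and these intervals overlap. By sample, the 3p arm gave 4 of 4 reads (NC-1) and 6 of 7 reads (NC-2) without GAA, and 2 of 7 reads (GAA-1) and 2 of 4 reads (GAA-2) with it. This share was looked at after the values of the arms were seen, and it is given as a description. No member precursor had both arms at a mean of 1 RPM, the level set for comparing arms.

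The other Rtl1 antisense miRNAs were at 1 or 2 reads. miR-127-3p, which has its own target site in the Rtl1 mRNA, had 1 read in NC-1, NC-2 and GAA-1 and none in GAA-2. GAA-1 counts as lower than the NC samples only because 1 read is worth fewer RPM in a deeper library. miR-127-5p had 1 read in NC-2 and 1 in GAA-1, miR-136-5p had 1 in GAA-1, and miR-136-3p had 1 in NC-2 and 2 in GAA-2. These values lie at or under 3 reads in each library, so no fold change is given for them. Next to this group, at Rian, miR-341-3p had 1 read in GAA-1 and miR-370-3p had none.

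**Figure D2:**
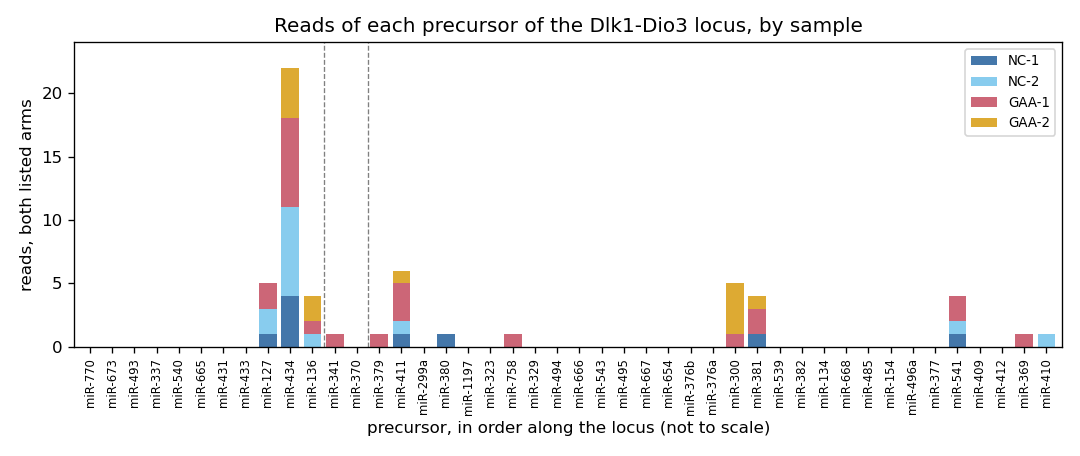
Reads of each precursor with a RefSeq position, summed over the listed arms and stacked by sample, in order along the locus from miR-770 to miR-410; the dashed lines separate the Rtl1-antisense side (left), miR-341 and miR-370 (middle) and the miR-379 to miR-410 group (right). miR-434 reached 22 of the 56 reads, and no other precursor had more than 6.

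The miR-379 to miR-410 group is the larger, distal group of the locus, in and upstream of the non-coding RNA Mirg (chr12:109729764-109749460). It held 41 of the listed miRNAs, of which 9 had reads, 24 in all. Upstream of Mirg, 6 of 22 had 18 reads, and within Mirg 3 of 16 had 6 reads. The 3 others have no RefSeq entry and no reads.

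miR-411-5p (chr12:109710190-109710210), at rank 534 of 869, was the most abundant of this group. Each NC sample had 1 read of it, or 0.203 and 0.211 RPM, GAA-1 had 3 and GAA-2 had 1, or 0.539 and 0.177 RPM, and the groups overlap. All its 6 reads came from the 5p arm, with none from miR-411-3p. miR-300-3p (chr12:109724363-109724384) had no read without GAA, and 1 read (GAA-1) and 4 reads (GAA-2) with it. Its mean in GAA was 0.443 RPM, under the worth of 3 reads in an NC library, so no fold change is given, and limma gave an adjusted p of 0.316.

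The other members of this group had at most 2 reads in a library. miR-381-3p, the near-copy of miR-300-3p, had 2 reads in GAA-1 and 1 in each of GAA-2 and NC-1, with none in NC-2. miR-541-5p had 2 reads in GAA-1 and 1 in each NC sample, with none in GAA-2. A single read was found for miR-380-3p in NC-1, for miR-410-3p in NC-2, and for miR-379-3p, miR-369-3p and miR-758-3p in GAA-1. The groups overlap for both miR-381-3p and miR-541-5p, and the single reads give no order of the groups.

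No read was found for miR-379-5p, miR-411-3p, miR-299a-5p, miR-299a-3p, miR-323-3p, miR-329-3p, miR-494-3p, miR-543-3p, miR-495-3p, miR-667-3p, miR-376a-3p, miR-376b-3p, miR-376c-3p, miR-487b-3p, miR-539-5p and miR-382-5p. The same holds for miR-382-3p, miR-134-5p, miR-668-3p, miR-485-5p, miR-485-3p, miR-154-5p, miR-154-3p, miR-496a-3p, miR-377-3p, miR-409-3p, miR-409-5p, miR-412-5p, miR-369-5p, miR-654-3p, miR-666-5p and miR-1197-3p. A list of 50 other mature names of the locus, mostly opposite arms, added 1 read, of miR-376b-5p in GAA-2.

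The summed level of the 16 detected members overlapped between the groups, and this overlap depended on miR-434-3p, which was itself lower in each GAA sample. NC-1 had 9 reads of the members and NC-2 had 13, or 1.83 RPM (0.836 to 3.47) and 2.75 RPM (1.46 to 4.70). GAA-1 had 22 and GAA-2 had 12, or 3.95 RPM (2.48 to 5.98) and 2.12 RPM (1.10 to 3.70), which placed GAA-2 between the NC samples. The mean was 2.29 ± 0.65 RPM in NC and 3.04 ± 1.29 RPM in GAA (SD, n = 2 each), a log2 difference of 0.37 (exact permutation test, two-sided, p = 0.667). With 2 samples against 2, this test cannot give a p below 0.333. The log2 difference turned to -0.16 when samples were scaled by median-of-ratios factors and to -0.079 without GAA-1. It was 1.04 without miR-434-3p and 0.78 without both miR-434 arms, the latter a setting chosen after seeing the data. In each case both GAA samples then exceeded both NC samples (exact permutation test, two-sided, p = 0.333). In RPM, 38.6% of all detected miRNAs had this order, so it is common on this scale.

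As a miRNA share, the sums were 5.44 (NC-1) and 6.29 (NC-2) per 1000000 miRNA reads without GAA, and 7.02 (GAA-1) and 4.21 (GAA-2) with it. GAA-1 was the highest and GAA-2 the lowest of the 4. The means were 5.87 ± 0.60 and 5.61 ± 1.99 (SD, n = 2 each), and the log2 difference was -0.11 (exact permutation test, two-sided, p = 1). The ratio of pooled reads, GAA to NC, was 1.33 (0.755 to 2.39) per mappable read and 0.960 (0.546 to 1.72) per miRNA read. Both intervals include 1 and leave out the spread between samples. Changes within these bounds, and also beyond them, could therefore be missed. Leaving out miR-434-3p turned the log2 difference per miRNA read to 0.56, with both GAA samples above both NC samples (exact permutation test, two-sided, p = 0.333). Without both miR-434 arms, a setting chosen after seeing the data, the difference was 0.31 and the groups overlapped. The shares were then 3.02 (NC-1), 2.90 (NC-2), 4.79 (GAA-1) and 2.81 (GAA-2). Leaving out GAA-2 turned the difference of all members to 0.26.

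**Figure D3:**
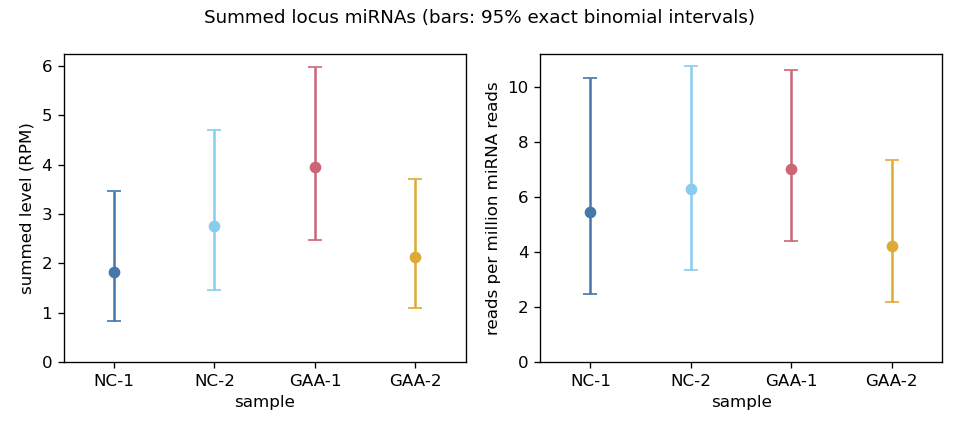
Summed level of the locus in each sample (points), in RPM on the left and per 1000000 miRNA reads on the right, with 95% exact binomial intervals (bars). GAA-1 is highest on both axes, at 3.95 RPM and 7.02 reads per 1000000 miRNA reads, and the intervals of all 4 samples overlap.

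The ends of the locus were compared within each sample, which removes the divisor. The Rtl1-antisense side had 5 (NC-1), 10 (NC-2), 10 (GAA-1) and 6 (GAA-2) reads. The miR-379 to miR-410 group had 4 (NC-1), 3 (NC-2), 11 (GAA-1) and 6 (GAA-2) reads. The ratio of the distal group to the Rtl1-antisense side was 0.800 and 0.300 for NC-1 and NC-2, 1.10 for GAA-1 and 1 for GAA-2. The ratio was higher in each GAA sample than in each NC sample, with a log2 difference of 1.10 (exact permutation test, two-sided, p = 0.333, the smallest it can give). Without the most abundant miRNA of each side the difference was -0.13, and without NC-2 it was 0.39, so it rests on a few reads.

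Over all detected miRNAs, limma called none of the 869 at an adjusted p under 0.01 and a log2 difference above 1 (0.0%), and none of the 16 members. On the log2(RPM + 1) scale, a miRNA under 1 RPM in every sample cannot differ by more than 1. This held for every member except miR-434-3p, so the limit on the difference could not be passed by the others. At an adjusted p under 0.05 without that limit, limma also called 0 of 869 miRNAs and 0 members. At an unadjusted p under 0.05 there were 152 miRNAs, among them 1 member, miR-434-3p. The adjusted p of the members ranged from 0.275 to 0.946, and the lowest of all miRNAs was 0.205. The median difference on the log2(RPM + 1) scale was 0.12 for the 16 members and 0.22 for all 869 miRNAs, and it was 0.15 and 0.08 as a miRNA share. The members' median is the fitted value of a miRNA with a single read in GAA-1 and therefore depends on the added 1. No bound could be set in its place, since no member without reads in a group had a mean above 3 reads a library in the other.

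RPM was higher in both GAA samples than in both NC samples for 2 of the 16 members (12.5%), miR-434-5p and miR-300-3p, against 38.6% of all detected miRNAs. It was lower for 2 members (12.5%), miR-434-3p and miR-127-3p, against 5.52%. As a miRNA share the same 4 miRNAs were set apart, and the shares over all detected miRNAs were 18.0% above and 13.5% below. Among 410 other miRNAs with at most 14 reads, the highest number of a member, 14.1% were higher and 7.32% lower in RPM, nearer to the members' 12.5%. Reads were found in both groups for 8 members, in NC samples alone for 2 (2 reads) and in GAA samples alone for 6 (10 reads), with more miRNA reads sequenced in the GAA samples.

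The locus was then set beside other miRNA clusters of the same libraries. Mature miRNAs are of nearly the same length, so their RPM needed no correction for length. How evenly different miRNA sequences were captured in the libraries was not tested, so folds between sets are approximate. The miR-143 and miR-145 cluster, known from smooth muscle, the miR-322, miR-503 and miR-351 cluster, which is induced when myoblasts leave the cell cycle, and the miR-17 to miR-92a cluster, which promotes proliferation, were detected with 4 of 4, 6 of 6 and 11 of 11 listed miRNAs. Their summed levels were 11072- to 24326-fold, 922- to 1199-fold and 488- to 714-fold above that of the locus. Each cluster was higher in 4 of 4 samples. An exact sign-flip permutation test over the 4 samples (two-sided) gave p = 0.125 for each, the smallest it can give. The clusters were chosen with earlier results of these data known, so this p adds nothing to the fold values.

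The change of the locus relative to the other sets differed from set to set. The log2 ratio of the locus to the miR-143 and miR-145 cluster differed between GAA and NC by -0.03 (exact permutation p = 1), to the miR-322, miR-503 and miR-351 cluster by 0.18 (exact permutation p = 0.667) and to the miR-17 to miR-92a cluster by -0.30 (exact permutation p = 0.333). Against the miR-17 to miR-92a cluster, each GAA ratio was lower than each NC ratio, and 0.333 is the smallest p the test can give. All 3 tests were two-sided.

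The miRNAs of 3 other imprinted genes were added after the values of the locus had been seen. miR-675, made from the maternal non-coding RNA H19, which is known to act in muscle differentiation, summed to 14.4 and 16.9 RPM in NC and 22.8 and 21.4 RPM in GAA, 5.77- to 10.1-fold above the whole locus. Its miRNA share was 42.9 and 38.7 in NC and 40.5 and 42.4 in GAA per 1000000 miRNA reads, so the groups overlap on this scale. miR-335, from the paternally expressed Mest, summed to 22.9 and 23.9 RPM in NC and 16.7 and 9.54 RPM in GAA, 4.23- to 12.6-fold above it. Its miRNA share was also lower in each GAA sample, at 68.3 and 54.7 in NC and 29.7 and 18.9 in GAA. miR-483, in an intron of the growth factor gene Igf2, summed to 2.84 and 2.75 RPM in NC and 1.80 and 1.06 RPM in GAA, and exceeded the locus in 1 of 4 samples (0.455- to 1.56-fold). Its miRNA share was 8.47 and 6.29 in NC and 3.19 and 2.10 in GAA. The sums of miR-675 and of miR-335 exceeded that of the 58 listed miRNAs in 4 of 4 samples (exact sign-flip permutation p = 0.125 for each, two-sided), whereas miR-483 did not (p = 0.5, same exact test). The log2 ratio of the locus to these sets differed between GAA and NC by -0.13 for miR-675 (exact permutation p = 1), 1.26 for miR-335 and 1.39 for miR-483 (exact permutation p = 0.333 for both). For miR-335 and miR-483 each GAA ratio was higher than each NC ratio.

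**Figure D4:**
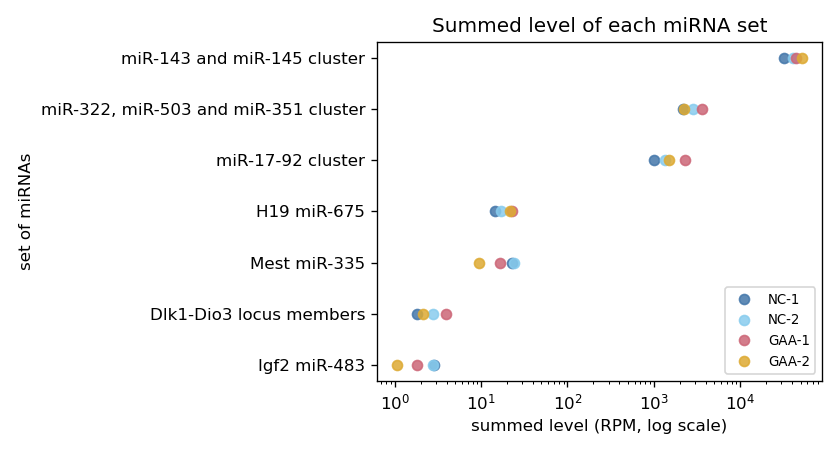
Summed level in RPM (log scale) of the Dlk1-Dio3 locus miRNAs, 3 other clusters and the miRNAs of 3 other imprinted genes, with 1 point for each sample. The locus lies at 1.83 to 3.95 RPM, below every set except miR-483 of Igf2.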

How the data were processed

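Small RNA of 4 samples (2 NC, 2 GAA) was analysed, grouped by the sample titles. The authors removed low-quality, adaptor, repeated and wrongly sized reads, mapped the rest to GRCm38, identified known miRNAs with miRDeep2 and divided their reads by all mappable reads. The deposited log2 values are log2(RPM + 1), without rows for miRNAs that had no reads. The base and the pseudocount were inferred, since the RPM they give are multiples of a constant step, the worth of 1 read (95.4% to 96.0% whole, tolerance 0.01).

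RPM and reads were recovered from this step, and depth is the sum of reads. limma 3.58.1 in R 4.3.3 (lmFit, eBayes with trend, Benjamini-Hochberg) was fitted over 869 miRNAs with condition as the only term, after tests on simulated data. Single values per sample were compared by exact permutation tests in Python 3.11.15, and exact intervals were computed with scipy 1.17.1. Sequences and mature positions came from RefSeq (GRCm38.p6) and host genes from GENCODE (GRCm38), in 1-based coordinates. Plots were made in matplotlib 3.10.9.

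Members were listed by name and position, not by a measured value. Earlier results of these data were known when the members and lists were chosen. The rule was to name the 12 most abundant members, the 5 largest rises and falls among members with a mean of at least 1 RPM (0 found), and shared seeds. All 16 detected members are named. Since 0 members reached that mean, counts of non-overlapping groups were made over all detected members. Alternatives were division by miRNA RPM, median-of-ratios factors, a pseudocount of 0.1, a filter, no trend, a replicate block, other thresholds, and omission of a sample or of an abundant miRNA. The labels name no batch.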

Additional observations from a re-analysis of the deposited data

How the results depend on the processing

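The number of members called by limma was 0 as reported and in each of the 11 alternatives, and 0 to 0 with each sample left out. In the fits on log2(RPM + 1), a member under 1 RPM in every sample could not pass the limit of 1 on the difference. Only miR-434-3p exceeded 1 RPM in a sample. No member had a mean of at least 1 RPM, so that filter gives no value for limma. The counts of members with both GAA samples above, or below, both NC samples under that filter are 0 by construction. These counts were 2 each over all detected members, also after division by summed miRNA RPM (2 each) and with median-of-ratios factors (2 each), the last pair of settings being chosen after seeing the data. The log2 difference of the summed RPM, 0.37, turned to -0.16 with median-of-ratios factors and to -0.079 without GAA replicate 1. With samples left out it was -0.079 to 0.82. It was 1.04 without miR-434-3p and 0.78 without both miR-434 arms (the latter chosen after seeing the data). That of the summed share, -0.11, turned to 0.56 without miR-434-3p, to 0.31 without both miR-434 arms (chosen after seeing the data) and to 0.26 without GAA replicate 2 (-0.48 to 0.26 with samples left out). The ratio of the distal group to the Rtl1-antisense side, 1.10, turned to -0.13 without the most abundant miRNA of each side (0.39 to 1.81 with samples left out). The cause of these reversals was not tested. miR-434-3p stayed between -1.29 and -0.42 and miR-434-5p between 0.30 and 1.93, with adjusted p from limma of 0.220 to 0.547 and 0.190 to 0.720. The labels do not say whether same-numbered samples were paired. Their correlation of deviations was -0.15 over 323 miRNAs, and that of crossed numbers was 0.15. With 2 samples in a group these are mirror values, so they cannot decide on pairing. A fit with the replicate block called 0 members and 0 of 869 miRNAs (adjusted p from limma 0.482 for miR-434-3p and 0.492 for miR-434-5p). The crossed pairing, added after seeing the data, also called 0 members. Division by miRNA RPM and median-of-ratios factors each called 1 of 869 miRNAs, not a member. With a sample left out, its group's lone sample is assumed to vary like the other group. Depth limits each member: 14 reads or fewer in all.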
